A study of Mus musculus with 9 samples.

Results

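Gene expression in the hippocampus was compared between adult mice with cognitive decline (p3) and young mice with normal cognition (p1). The comparison took 6 of the 9 mice of the study and all 22206 of 22206 probe sets of the Affymetrix Mouse Clariom S array, each mouse giving 1 array. Mice 7, 19 and 20 (titled Young, 11 weeks of age) formed p1, and mice 2, 6 and 11 (titled Old with the suffix D, read as decline, 47 weeks of age) formed p3. All were untreated male mice, of the strain given as C57BL6 in the labels and C57BL/6NCrSlc in the methods, and no transgene or agent separated the groups. Young and adult animals were purchased at different ages. The p3 mice were those with the lowest combined scores of the adult cohort in 2 tests, the Y-maze and the open field. Age, age at purchase and cognitive status therefore cannot be told apart in this comparison. The remaining 3 mice (adult, normal cognition, p2) were left out because most of their deposited values follow a straight line by row number.

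The hippocampus forms and retrieves spatial and episodic memory, and its dentate gyrus keeps neural stem cells that produce new granule neurons after birth. When a neuron fires, calcium and MAP kinase signals switch on immediate early genes within minutes, without new protein synthesis. Some of these genes encode transcription factors of the AP-1, EGR and NR4A families, and others encode proteins that act at the synapse, such as Arc. In adult brain most neurons no longer divide, whereas stem cells, neuronal precursors and oligodendrocyte precursors still do.

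Values are log2 signals per probe set as deposited, and each series of 6 values below is in the order of p1 mice 7, 19 and 20 and then p3 mice 2, 6 and 11. A difference is the mean of p3 minus the mean of p1 on that scale, given with its standard error (SE) from limma. A probe set is called past the threshold where it met the cut-off of the study's methods, a fold change over 1.5 together with an unadjusted p under 0.05. Signal levels of different probe sets depend on their probes and are not a measure of which transcript is more abundant. In bulk tissue, fewer cells of a type and less RNA per cell cannot be told apart.

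The 6 arrays were on 1 scale, with medians between 6.62 and 6.71, and they correlated at 0.991 to 0.993 within p1, 0.991 to 0.994 within p3 and 0.990 to 0.994 between the groups. Markers that define the hippocampus were present in every mouse, with Prox1 of dentate granule cells at 11.90 to 13.19 and Wfs1 of CA1 pyramidal cells at 11.73 to 12.24. A pair of arrays stood apart. Choroid plexus markers (21 measured), which belong to the tissue that secretes cerebrospinal fluid and lies against the hippocampus, summed to a log2 signal of 19.24 in mouse 19 of p1 and 19.35 in mouse 11 of p3, against 12.73 to 14.98 in the remaining 4. Thalamus markers (22 measured) had a log2 summed signal of 17.32 in p3 mouse 11 and of 15.09 to 15.64 in the other 5. Calls that were lost with both of these mice left out are given beside the genes named.

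Over the whole array, 379 of 22206 probe sets (1.71%) were past the threshold, 212 higher (0.955%) and 167 lower (0.752%) in p3. After Benjamini-Hochberg adjustment over all 22206, limma called 0 probe sets (smallest adjusted p = 0.891). A t-test on the same 6 arrays, without the moderation of variances in limma, also called 0. This test is named the methods' t-test below, after the t-tests in the study's statistics section. For its arrays the study names a one-way ANOVA, which was not rerun here. Before adjustment limma gave 1214 (5.47%) a p under 0.05. Every gene named below therefore rests on the unadjusted threshold. A fold of 2 was passed by 26 of the 379, 14 higher and 12 lower. Values of the groups were fully separated in 2316 probe sets (10.4%), and in 282 of the 379. The threshold was still met in each of the 6 fits that left out 1 mouse by 93 probe sets, 58 higher and 35 lower. The count rose to 682 without p1 mouse 19 and 638 without p3 mouse 2, and to 853 (490 higher, 363 lower) without both p1 mouse 19 and p3 mouse 11.

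**Figure D1:**
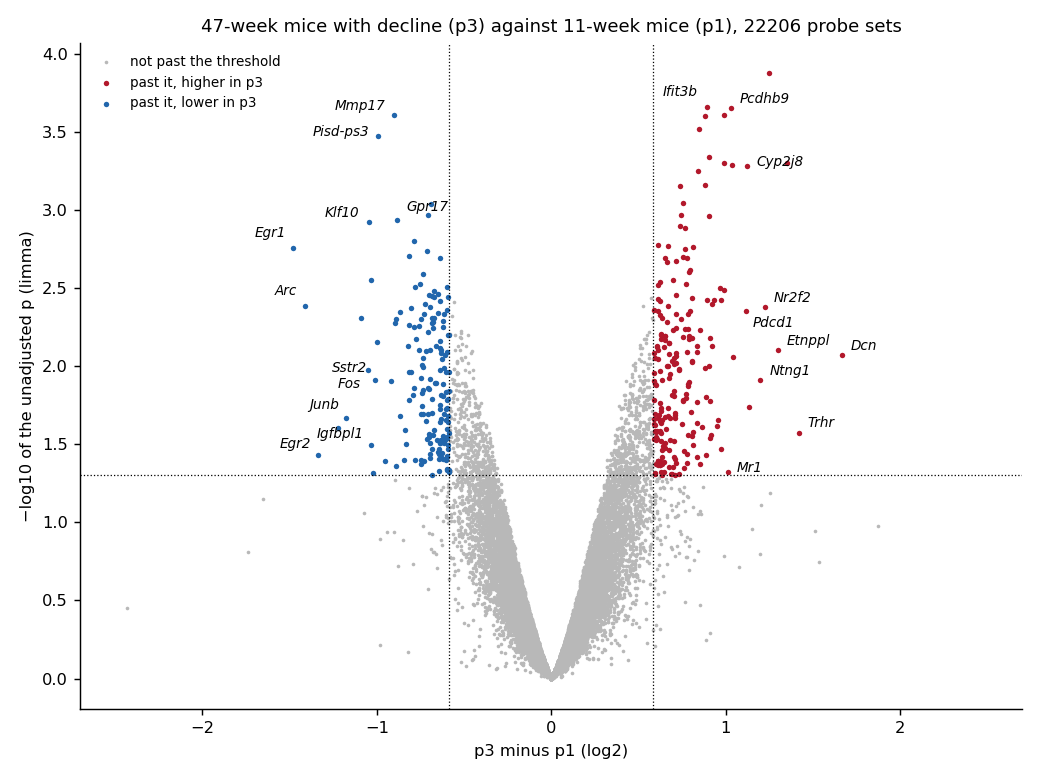
Difference between p3 and p1 on the log2 scale (horizontal axis) against the negative log10 of the unadjusted limma p (vertical axis) for all 22206 probe sets, with dotted lines at a fold of 1.5 and a p of 0.05. The 212 red points passed the threshold higher in p3 and the 167 blue points lower, and Egr1 and Arc lie farthest to the left among the blue points.

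Immediate early genes had the largest share of members called lower of the 59 lists. Of 27 measured, 10 passed the threshold and all 10 were lower in p3, against 0.752% of all probe sets, and 25 of 27 had a lower mean. The median difference was -0.54, where the median of all probe sets was 0.003. Egr1, a zinc finger transcription factor that neuronal activity induces, had log2 values of 13.78, 13.20, 14.34, 12.50, 12.63 and 11.75. All 3 p3 mice lay below all 3 p1 mice, a difference of -1.48 (SE 0.33, fold 2.79, unadjusted p = 0.00175, adjusted p = 0.892). Arc, whose protein moves glutamate receptors at active synapses, was at 9.27, 8.70, 10.27, 8.08, 7.72 and 8.20, again with no overlap (-1.41, SE 0.36). Fos, a subunit of the AP-1 transcription factor, was at 6.85, 6.60, 7.96, 6.05, 6.09 and 6.12. The 3 p3 mice lay close together for Fos while the p1 mice had an SD of 0.72, and the difference was -1.05 (SE 0.32). Egr1, Arc and Fos stayed past the threshold whichever mouse was left out, although Fos differed by only -0.64 without p1 mouse 20. In the methods' t-test, and with all 9 arrays and no moderation, 2 of the 27 were called lower instead of 10, Egr1 and Arc, and Fos was not. Over the array these fits called 77 and 79 probe sets lower, against 167 in the main limma fit.

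The other 7 members called lower each missed the threshold in some of the fits that left out 1 mouse. Such a fit has fewer arrays, so a call can be lost on p without a smaller difference. Junb, the partner of Fos in AP-1, was at 8.22, 6.62, 7.77, 6.96, 5.95 and 6.17 (-1.18, SE 0.42), so that p1 mouse 19 lay below p3 mouse 2. Egr2, an EGR family transcription factor, was at 8.45, 7.18, 9.70, 7.27, 6.74 and 7.31 (-1.34, SE 0.54), where the p1 mice spread over more than a fold of 2 and the groups overlapped. Junb missed the threshold without p1 mouse 7 (-0.84), p1 mouse 20 (-1.06), p3 mouse 6 (-0.97) or p3 mouse 11 (-1.08), with a p above 0.05 each time. Egr2 missed it, also on p, without p1 mouse 7 (-1.33), p1 mouse 20 (-0.71), p3 mouse 2 (-1.42), p3 mouse 6 (-1.15) or p3 mouse 11 (-1.44). Without p3 mouse 2 or 11 its difference was larger than in the full fit. Dusp6, a phosphatase that switches off the MAP kinase ERK, differed by -0.79 (SE 0.25) with no overlap, and by -0.58 without p1 mouse 7 or p3 mouse 6. Inhba, a subunit of the growth factor activin, differed by -0.81 (SE 0.27), and missed the threshold without p1 mouse 7 (-0.58), p3 mouse 2 (-0.72) or p3 mouse 11 (-0.68). Nr4a1, an orphan nuclear receptor (-0.84), Nptx2, a pentraxin secreted at excitatory synapses (-0.75), and Egr3 (-0.70) make up the 10. These last 3 were named after their values were seen, and when p1 mouse 20 was left out they differed by -0.54, -0.51 and -0.47, below the fold threshold. Egr3 was read from the brightest of its 3 probe sets, and the other two differed by 0.33 (SE 0.21) and -0.28 (SE 0.25). The 3 genes also missed it, on p, without p1 mouse 7 (-0.76, -0.62 and -0.73) or p3 mouse 11 (-0.76, -0.67 and -0.63), Nr4a1 without p3 mouse 6 (-0.73), and Nptx2 and Egr3 without p3 mouse 2 (-0.68 and -0.57).

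Members that were not called include Npas4, a transcription factor of excited neurons (-0.81, SE 0.37), Sik1, a salt-inducible kinase (-0.54, SE 0.17, no overlap), Homer1, a scaffold of the postsynaptic density (-0.51, SE 0.23, no overlap), and Bdnf, the brain-derived neurotrophic factor (-0.39, SE 0.33). Jun, the third AP-1 subunit named here, was at 10.02, 9.54, 9.87, 10.04, 9.87 and 9.61 and differed by 0.03 (SE 0.19). Fosl2 differed by 0.04 (SE 0.17), so that Jun and Fosl2 were the 2 of 27 with a mean that was not lower in p3. Npas4, Bdnf, Jun and Fosl2 were chosen after their values were seen. By mouse, p1 mouse 20 had the highest of the 6 values in 16 of the 27 genes and p3 mouse 11 the lowest in 11, while p1 mouse 19 was the lowest of all in 5. Leaving out p1 mouse 19 raised the number called lower to 13, and it was 5 when p1 mouse 7 or p1 mouse 20 was dropped. It came to 6, 8 and 4 when p3 mouse 2, 6 or 11 was dropped. The share of all probe sets called in either direction rose as well, from 1.71% to 3.07% without p1 mouse 19. It was 2.1% to 2.9% when any other mouse was dropped. The median of the list lay between -0.71 and -0.34 in these 6 fits. Without both p1 mouse 19 and p3 mouse 11, the arrays with choroid plexus and thalamus signal, 13 of 27 were called lower. In that fit 3.84% of all probe sets were called in either direction. Egr1, Arc and Fos then differed by -1.50, -1.87 and -1.34.

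**Figure D2:**
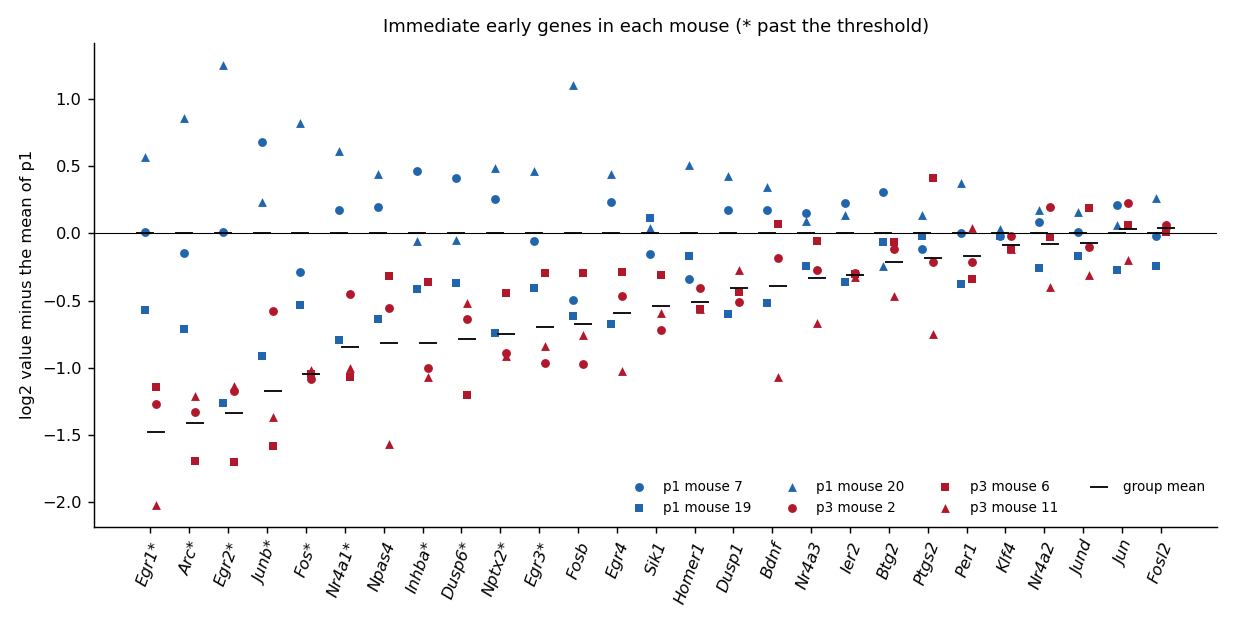
Log2 value of 27 immediate early genes in each mouse minus the mean of the p1 mice (vertical axis), with p1 mice in blue, p3 mice in red, a black bar at each group mean and a star at genes past the threshold. Genes run from the lowest difference (Egr1, -1.48) to the highest (Fosl2, 0.04), and p1 mouse 20 is the highest point for 16 of them.

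Klf10 and Cdkn1a, outside that list, are 2 more genes that signals induce quickly in many cell types. Klf10, a Krüppel-like transcription factor, was at 8.67, 8.59, 9.24, 7.88, 7.97 and 7.51 (-1.05, SE 0.22), and stayed past the threshold whichever mouse was left out. Klf10 was picked by p and size of difference in these same mice, which favours such a result. Cdkn1a, which encodes the cell cycle inhibitor p21, was at 8.15, 8.42, 9.81, 7.51, 8.41 and 7.39 (-1.02, SE 0.44). Here p3 mouse 6 overlapped the p1 mice and p1 mouse 20 stood far above the rest, and the call was lost without p1 mouse 20 (-0.52), p3 mouse 2 (-0.89) or p3 mouse 11 (-0.83), and without both p1 mouse 19 and p3 mouse 11 (-1.02, on p).

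Promoter sequences of 3 of the called immediate early genes are shown because these genes moved together and because the binding sites of their activators are well described. The 3 were picked by hand, and Egr1 and Arc are not shown. The letters TGACG are the core of the cyclic AMP response element bound by CREB, and the CArG box is bound by serum response factor. Each line gives the 250 bases before the annotated start from RefSeq (assembly GRCm38.p6), 5′ to 3′ on the strand of the gene, in lower case with TGACG on either strand (CGTCA where it lies on the other strand) and the CArG box in capitals.
Fos (chr12:85473640-85473889, plus strand): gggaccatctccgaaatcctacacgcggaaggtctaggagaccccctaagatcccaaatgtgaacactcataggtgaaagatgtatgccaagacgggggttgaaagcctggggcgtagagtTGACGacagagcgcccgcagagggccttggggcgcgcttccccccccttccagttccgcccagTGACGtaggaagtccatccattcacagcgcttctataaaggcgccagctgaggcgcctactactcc
Nr4a1 (chr15:101266596-101266845, plus strand): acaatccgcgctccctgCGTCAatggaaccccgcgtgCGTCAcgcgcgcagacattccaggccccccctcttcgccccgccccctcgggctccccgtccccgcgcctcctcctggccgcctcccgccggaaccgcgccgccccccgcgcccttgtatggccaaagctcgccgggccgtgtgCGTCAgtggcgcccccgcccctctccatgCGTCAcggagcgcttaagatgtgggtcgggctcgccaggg
Egr2 (chr10:67537619-67537868, plus strand): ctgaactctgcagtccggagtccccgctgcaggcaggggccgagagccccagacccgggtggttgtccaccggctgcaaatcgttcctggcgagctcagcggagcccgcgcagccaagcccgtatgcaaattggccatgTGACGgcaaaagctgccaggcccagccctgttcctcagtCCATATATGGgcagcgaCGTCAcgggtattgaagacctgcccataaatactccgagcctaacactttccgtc
Fos held TGACG at positions -129 to -125 and -66 to -62 before the start, Nr4a1 held it 4 times, and Egr2 held it 2 times with a CArG box between at -72 to -63. Egr2 has 5 annotated starts, and the 1 shown was picked for holding the most marked matches, so it does not stand for the others. Of the 27 measured genes 21 had a promoter in the table, with 33 starts, and TGACG was present in 54.5% of these promoters against 17.8% of all 32851 of the same length (both strands counted). The CArG box was present in 12.1% against 1.47%. Such matches describe letters in a window and do not show a bound site.

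Histone genes were mostly lower in p3 by small amounts. They encode the proteins around which DNA is wound, and the clustered genes are transcribed mainly while DNA is copied in dividing cells. Of 68 measured, 4 passed the threshold, all lower (0.752% of all probe sets were), and 23 had an unadjusted p under 0.05 and a lower mean, against 2.55% of all probe sets. The 23 fell to 11 without p1 mouse 7 or p3 mouse 11, and to 8 without p1 mouse 19 and p3 mouse 11. The median difference was -0.27 and 57 of 68 had a lower mean in p3. The p3 mice lay below the p1 mice without overlap in 27 of 68, against 5.21% of all probe sets. Among the 49 genes of the 4 core histones in the clusters, 46 had a lower mean, 12 of 13 for H2A, 13 of 15 for H2B, 10 of 10 for H3 and 11 of 11 for H4. Their median differences were -0.46, -0.19, -0.42 and -0.30. The 6 testis-specific and other histone genes had a median of 0.07. Near-identical copies within these clusters can share signal between probe sets, so the members are not independent observations.

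H2ac15 was at 9.28, 8.95, 8.96, 8.60, 8.38 and 7.75, with p3 mouse 11 the lowest and no overlap (-0.82, SE 0.23, unadjusted p = 0.00744). H2ac10 was at 10.52, 10.42, 10.04, 10.02, 9.68 and 9.03 (-0.75, SE 0.26), where p1 mouse 20 and p3 mouse 2 were almost equal. H2ac22 differed by -0.60 (SE 0.20) and H2bc13 by -0.60 (SE 0.21), both just past the fold threshold and without overlap. None of these 4 stayed past the threshold whichever mouse was left out, and the methods' t-test called 2 of them, H2ac15 and H2ac22. Over the array that test called 77 probe sets lower, against 167 in the main limma fit. Without p3 mouse 11 H2ac15, H2ac10, H2ac22 and H2bc13 differed by -0.57, -0.48, -0.49 and -0.54, and without p1 mouse 19 H2ac10, H2ac22 and H2bc13 differed by -0.70, -0.57 and -0.48. H2ac10 and H2ac22 were also lost without p1 mouse 7 (-0.65 and -0.48), and H2bc13 without p3 mouse 6 (-0.49). The median over the 68 genes lay between -0.33 and -0.22 when 1 mouse was left out. With both p1 mouse 19 and p3 mouse 11 left out it came to -0.19, and 51 of 68 means were lower. In that fit 4 of the 68 were called lower, and 3.84% of all probe sets were called in either direction. The 4 included H2ac15 (-0.63), H3c8 (-0.65) and H3c10 (-0.61), but not H2ac10, H2ac22 and H2bc13 (-0.43, -0.46 and -0.41). H3c8 (-0.55, SE 0.17), H3c10 (-0.53, SE 0.17) and H2ac11 (-0.50, SE 0.15) did not reach the fold threshold, though the groups did not overlap in any of the 3. By mouse, p3 mouse 11 had the lowest value in 28 of the 68 genes and p1 mouse 7 the highest in 27.

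The promoters of 3 of the called histone genes are shown for the element that these genes share. CCAAT, bound by the factor NF-Y, is a frequent element of histone promoters, and here it stands in capitals (ATTGG where it lies on the other strand), with build and orientation as above.
H2ac15 (chr13:21753913-21754162, minus strand): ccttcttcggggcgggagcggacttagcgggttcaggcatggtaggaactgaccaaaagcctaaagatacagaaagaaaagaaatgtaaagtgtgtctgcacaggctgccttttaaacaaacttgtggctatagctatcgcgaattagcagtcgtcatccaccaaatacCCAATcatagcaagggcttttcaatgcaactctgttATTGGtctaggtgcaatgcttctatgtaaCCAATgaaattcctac
H2ac22 (chr13:21787249-21787498, minus strand): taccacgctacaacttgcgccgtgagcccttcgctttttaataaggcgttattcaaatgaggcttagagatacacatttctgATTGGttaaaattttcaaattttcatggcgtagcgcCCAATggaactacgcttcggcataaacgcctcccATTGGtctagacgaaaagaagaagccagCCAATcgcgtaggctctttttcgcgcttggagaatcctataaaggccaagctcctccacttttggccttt
H2bc13 (chr13:21716184-21716433, minus strand): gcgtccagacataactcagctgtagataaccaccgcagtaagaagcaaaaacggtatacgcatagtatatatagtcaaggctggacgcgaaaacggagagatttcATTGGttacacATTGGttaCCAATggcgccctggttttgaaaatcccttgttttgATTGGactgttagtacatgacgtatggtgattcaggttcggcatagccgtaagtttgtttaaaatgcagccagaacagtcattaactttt
H2ac15 held CCAAT 3 times, at -81 to -77, -45 to -41 and -16 to -12, and H2ac22 and H2bc13 held it 4 times each. Of the 49 clustered core histone genes 44 had a promoter in the table, 1 each, and 79.5% of these held CCAAT on either strand, against 33.9% of all promoters of the same length. TGACG was present in 47.7% of the 44 and the CArG box in 9.09%, against 17.8% and 1.47% of all promoters. Promoters of the immediate early genes held them in 54.5% and 12.1%, so neither element was particular to that list. These shares describe the sequences and were not related to the size of the difference.

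Clustered protocadherins were mostly higher in p3. These cell surface proteins are expressed in different combinations by single neurons and let a neuron tell its own branches from those of others, and all 20 measured belong to the beta cluster. Of the 20, 3 passed the threshold, all higher (0.955% of all probe sets were), 6 had an unadjusted p under 0.05 with a higher mean (2.92% of all), and 18 had a higher mean, with a median difference of 0.33. Pcdhb9 was at 8.62, 8.81, 9.03, 9.91, 9.95 and 9.68, so that all 3 p3 mice stood clear of all 3 p1 mice (1.03, SE 0.16, fold 2.04, unadjusted p = 0.000223, adjusted p = 0.891). Pcdhb20 was at 9.21, 9.28, 9.94, 10.07, 10.65 and 10.06 (0.78, SE 0.25) and Pcdhb2 at 7.92, 7.49, 7.46, 8.80, 8.09 and 8.02 (0.68, SE 0.24). Neither overlapped, but in Pcdhb20 p1 mouse 20 came close to the p3 mice. In the methods' t-test, and with all 9 arrays and no moderation, Pcdhb9 alone of the 20 was called. Over the array these fits called 107 and 111 probe sets higher, against 212 in the main limma fit. With 1 mouse left out, Pcdhb9 always stayed past the threshold, Pcdhb20 missed it without p3 mouse 6 (0.59), and Pcdhb2 without p1 mouse 19 (0.61), p1 mouse 20 (0.60) or p3 mouse 2 (0.43). Pcdhb8 (0.58, SE 0.15) and Pcdhb14 (0.55, SE 0.17) did not overlap and fell short of the fold. In all 7 of the 20 genes had p3 mice above p1 mice without overlap, against 5.22% of all probe sets. Pcdhb11 lay the other way without overlap (-0.29, SE 0.16), and was named after its value was seen. The median stayed between 0.29 and 0.45 when 1 mouse was left out. With p1 mouse 19 and p3 mouse 11 both dropped it came to 0.39, and 4 of 20 were called higher. In that fit 3.84% of all probe sets were called in either direction. The 11 non-clustered protocadherins had 0 calls, 6 higher means and a median of 0.06. Beta protocadherins are close in sequence, so neighbouring probe sets can share signal.

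**Figure D3:**
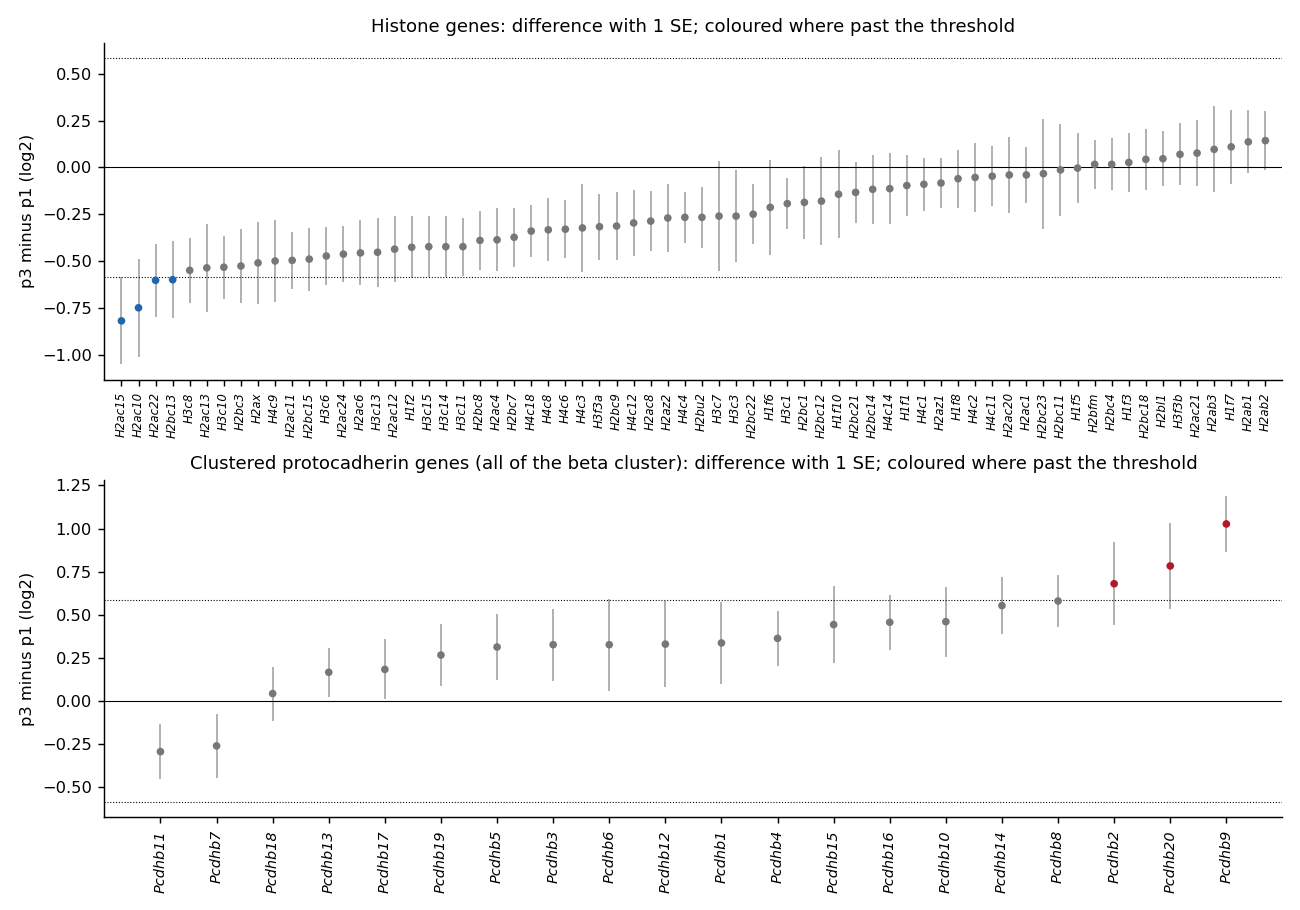
Difference between p3 and p1 with 1 SE (vertical axis, log2) for 68 histone genes (upper panel) and 20 clustered protocadherin genes (lower panel), sorted, with dotted lines at a fold of 1.5 and colour for genes past the threshold. In the upper panel 57 points lie below 0 and 4 are blue, and in the lower panel 18 lie above 0 and 3 are red.

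Genes of new neurons and of neural stem cells were lower in p3 where they were called. Of 25 measured genes of immature neurons, 20 had a lower mean (49.1% of all probe sets did), with a median of -0.19, and 2 passed the threshold, both lower, against 0.752%. Igfbpl1, a secreted protein of migrating young neurons, was at 4.70, 6.01, 4.31, 3.75, 3.82 and 4.34 (-1.04, SE 0.40). Here p1 mouse 19 was far above all others and p3 mouse 11 lay just above p1 mouse 20, and the call was lost without p1 mouse 19 (-0.54), p3 mouse 2 (-0.93) or p3 mouse 6 (-0.96). Islr2, a membrane protein of growing axons, was at 8.65, 7.80, 8.42, 7.55, 7.38 and 7.34 (-0.87, SE 0.22), with no overlap and past the threshold whichever mouse was left out. Dcx, the doublecortin gene that defines immature neurons, was at 8.61, 9.02, 9.32, 9.0, 9.20 and 8.99 and differed by 0.08 (SE 0.20), and Sox11 by -0.27. Marcksl1 (-0.38, SE 0.16) and Dlx2 (-0.63, SE 0.29) did not pass.

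Of 15 genes of neural stem and radial glia-like cells 3 passed, all lower (0.752% of all probe sets were), with a median over the list of -0.02. With 1 mouse left out the median ranged from -0.14 to 0.01, and only 1 was called lower without p3 mouse 2. Prom1, a membrane glycoprotein of stem cells, was at 8.92, 8.66, 9.04, 7.96, 8.47 and 8.0 (-0.73, SE 0.19) and stayed past the threshold whichever mouse was left out. Fabp7, a fatty acid binding protein of radial glia and astrocytes, was at 13.49 to 13.84 in p1 and at 12.83 to 13.16 in p3 (-0.62, SE 0.17). It fell short without p1 mouse 20 (-0.51) or p3 mouse 2 (-0.54). Thbs4, a thrombospondin of the subventricular zone and of astrocytes, differed by -0.73 (SE 0.24), and missed the threshold without p1 mouse 7 (-0.52) or p3 mouse 2 (-0.56). Nes and Hopx, which define such cells, differed by -0.02 and 0.09. Among 34 cell cycle genes 1 was called (2.94%, where 1.71% of all probe sets were). It was Bub1b of the spindle checkpoint (0.67, SE 0.20), which was higher. Bub1b was lost without p1 mouse 20 (0.58) or p3 mouse 11 (0.55), and was 0.52 with p1 mouse 19 out as well as p3 mouse 11. Mki67, the common marker of dividing cells, differed by -0.22 with a mean of 4.89, and 21 of the 34 had a lower mean. Kif2c, a kinesin of mitosis outside that list, was at 4.69, 4.79, 4.83, 4.17, 4.04 and 4.03 (-0.69, SE 0.14), and Ckap2l, a protein of the mitotic spindle, differed by -0.75 (SE 0.18). Both did not overlap and stayed past the threshold when any 1 mouse was left out. They were named for their small p, and their mean log2 values were under 6 (4.425 and 4.78). Ckap2l was not called with all 9 arrays and no moderation.

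The oligodendrocyte lineage, whose precursors mature into the cells that make myelin, changed in few genes. Gpr17, a receptor of precursors that are about to mature, was at 8.51, 8.17, 7.89, 7.29, 7.26 and 7.37. The p3 mice were nearly equal and lay below all p1 mice (-0.88, SE 0.18, unadjusted p = 0.00116), and the difference was -0.93 without p1 mouse 19 and p3 mouse 11. Bmp4, a growth factor expressed at the same stage, was at 7.24, 7.10, 7.23, 6.24, 6.47 and 6.83 (-0.68, SE 0.18), and was short of the fold without p3 mouse 2 (-0.54). These 2 were the members called of 25 precursor genes, against 0.752% of all probe sets called lower. Of the 25, 15 had a lower mean, the median was -0.17 (-0.18 to -0.03 with 1 mouse left out), and Mycl did not pass (-0.44, SE 0.18). Of 26 genes of myelin and mature oligodendrocytes 2 were called higher and 1 lower (0.955% and 0.752% of all probe sets were), with a median of 0.02. The median ranged from -0.23 to 0.25 with 1 mouse left out. Without p1 mouse 20, 4 were called lower, where 2.16% of all probe sets were called in either direction. Il33, an alarmin of the interleukin 1 family that mature oligodendrocytes carry, was at 11.64, 11.82, 11.23, 11.94, 12.56 and 12.69 (0.83, SE 0.24). Anln, an actin-binding protein found in myelin, was at 7.90, 8.64, 7.76, 8.81, 8.83 and 9.07 (0.80, SE 0.24), and Gsn, which severs actin filaments, at 8.72, 9.0, 8.38, 8.11, 7.62 and 7.95 (-0.81, SE 0.21). None of the 3 overlapped, and all stayed past the threshold whichever mouse was left out. Mbp and Mog, which define myelin, differed by -0.10 and 0.00. The list moved between single mice within the groups, from a median deviation of -0.46 in p1 mouse 20 to 0.29 in p3 mouse 11.

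Among the genes with the largest differences upward, Dcn, a small matrix proteoglycan abundant in fibroblasts, came first. It was at 10.06, 12.09, 11.84, 13.38, 12.73 and 12.87 (1.66, SE 0.48, fold 3.17). The p3 mice lay above all p1 mice, and p1 mouse 7 was far below the rest. The difference was 2.11 without p1 mouse 19 and p3 mouse 11. Dcn is 1 of the 21 leptomeningeal fibroblast markers, of which it was the only one called (median 0.07). It is also 1 of the 19 CA1 to CA3 pyramidal cell genes, again the only one called (median -0.13). Of all probe sets 0.955% were called higher. The log2 summed signal of the fibroblast markers was 12.89, 14.98, 13.23, 14.07, 13.70 and 14.96. This sum includes Dcn itself, so it is no separate measure, and the part of either cell type in the Dcn difference was not tested. Trhr, the thyrotropin-releasing hormone receptor, was at 4.79, 6.56, 7.17, 7.60, 7.86 and 7.31 (1.42, SE 0.53). Etnppl, an enzyme of phosphoethanolamine breakdown in astrocytes, was at 8.42, 9.98, 9.33, 10.26, 10.40 and 10.96 (1.30, SE 0.37). Nr2f2, a nuclear receptor also known as COUP-TFII, was at 9.66, 10.66, 10.79, 11.58, 11.26 and 11.94 (1.22, SE 0.31). In all 4 the groups did not overlap and p1 mouse 7 had the lowest value. Dentate markers stood higher in that mouse, with a median deviation of 0.26 for the 17 listed (Prox1 13.19, against 11.90 to 12.25 in the others). So did the CA1 to CA3 pyramidal cell genes (0.225) and the immediate early genes (0.37). The part of these lists in the differences was not tested. Without p1 mouse 7 the differences were 1.03 for Dcn, 0.73 for Trhr, 0.89 for Etnppl and 0.87 for Nr2f2. Dcn, Etnppl and Nr2f2 stayed past the threshold in every fit that left out 1 mouse. Trhr missed it, on p, without p3 mouse 2 (1.41) or p3 mouse 6 (1.28). All 4 were picked by size of difference in these same mice, which favours groups that do not overlap. In the methods' t-test Dcn, Trhr and Etnppl were not called, and Nr2f2 was.

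Ntng1, a netrin-like protein that anchors thalamic and other axons, was at 11.53, 11.86, 11.68, 12.79, 12.08 and 13.79 (1.197, SE 0.38), and Fign, a microtubule-severing protein, at 4.94, 5.32, 5.09, 5.57, 5.93 and 7.25 (1.13, SE 0.39). Both were highest in p3 mouse 11, the mouse with thalamus signal, and without that mouse they differed by 0.75 and 0.63. With p1 mouse 19 left out as well they differed by 0.83 and 0.74, still past the threshold, and Fign was lost without p1 mouse 7 (1.05) on p alone. Neither was called in the methods' t-test. Ntng1 was the only one of 22 thalamus markers called (0.955% of all probe sets were called higher). Of the 22, 21 had a higher mean (median 0.54), and the SD over the p3 mice had a median of 1.28 in this list. Tcf7l2, a transcription factor of the thalamus, was at 9.96, 10.07, 9.64, 9.84, 10.04 and 14.40, and Synpo2 at 5.28, 5.80, 5.53, 6.26, 5.48 and 9.41. Without p3 mouse 11 the thalamus median was -0.22. Pdcd1, which encodes the T cell receptor PD-1, was at 4.18, 3.47, 2.95, 4.68, 4.78 and 4.48 (1.11, SE 0.29), while the 16 measured lymphocyte genes had 0 calls and a median of -0.02. Mr1, which presents vitamin metabolites to T cells, differed by 1.01 (SE 0.43) with overlap, and was lost without p1 mouse 7 (0.89), p1 mouse 20 (0.68), p3 mouse 6 (1.16) or p3 mouse 11 (0.66).

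Among the genes lower in p3 with the smallest p, Mmp17, a membrane-anchored matrix metalloproteinase, was at 8.88, 8.83, 8.87, 8.14, 7.93 and 7.81 (-0.90, SE 0.15, unadjusted p = 0.000248, adjusted p = 0.891). The 3 p1 mice were nearly equal and all p3 mice lay well below them. Mmp17 was the only member of 19 metalloproteinases and inhibitors that was called (1.71% of all probe sets were). Pisd-ps3, a copy of the phosphatidylserine decarboxylase gene whose signal may be shared with related copies, was at 14.19, 14.51, 14.47, 13.45, 13.17 and 13.57 (-0.99, SE 0.17). Inf2, a formin that assembles actin, differed by -0.71 (SE 0.14), Aar2, a splicing factor, by -0.81 (SE 0.18), and Zfp472, a zinc finger protein, by -0.78 (SE 0.19). Rnf122, a ubiquitin ligase, differed by -1.03 (SE 0.25), and Tmem267, a membrane protein named for its size of difference, by -1.09 (SE 0.29). Groups did not overlap in any of these 7, and each stayed past the threshold when 1 mouse was left out. They were picked by p or size of difference in these same mice, which favours both traits, so neither is separate support. Of all probe sets 10.4% did not overlap. Of the 15 genes named for the smallest p among those lower, 5 had a mean log2 value under 6, among them Clec4a2, a lectin receptor of myeloid cells (-0.74), and Chil3, a chitinase-like protein of macrophages (-0.71). With 1 mouse left out, 2 of the 15 fell short of the fold in some fits. They were Mpzl1 without p1 mouse 7 (-0.58) and Pou3f2 without p1 mouse 19 (-0.56), p1 mouse 20 (-0.58), p3 mouse 2 (-0.55) or p3 mouse 6 (-0.57).

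Of the 15 genes named for the smallest p among those higher, 11 had a mean log2 value under 6. Ifit3b, which interferon induces, was at 7.49, 7.69, 7.65, 8.39, 8.53 and 8.58 (0.89, SE 0.14, unadjusted p = 0.000218), and Hdx, a homeobox gene, at 7.36, 7.41, 7.59, 8.24, 8.19 and 8.14 (0.74, SE 0.14). In both all p3 mice were clear of all p1 mice. Cyp2j8, a cytochrome P450, was at 4.21, 4.18, 4.59, 5.81, 5.34 and 5.20 (1.12, SE 0.20), and Tyw3, an enzyme of tRNA modification, at 4.97, 5.02, 4.72, 6.15, 5.90 and 5.63 (0.99, SE 0.18). Wars2, the mitochondrial tryptophanyl-tRNA synthetase, differed by 0.76 (SE 0.16). Also on this list were genes best known from other tissues, such as Bmp10 of the heart (0.88, SE 0.14) and Myot of muscle (0.84, SE 0.15). At levels this low the deposited values do not tell whether a transcript was present, and the background of the probe sets is not given in the sources used here. Of the 15, 13 stayed past the threshold in every fit that left out 1 mouse, the exceptions being Mcmdc2 and Dach1 without p1 mouse 19 (0.58 each). The 15 were picked by p in these same mice, which favours such a result. Mcmdc2 was also short of the fold without p1 mouse 19 and p3 mouse 11 (0.56).

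Receptors, channels and synaptic genes held few calls. Of 42 monoamine and peptide receptors 2 were called higher and 1 lower, against 0.955% and 0.752% of all probe sets. Sstr2, a somatostatin receptor, was at 9.0, 9.26, 9.76, 8.73, 8.62 and 7.63, with p3 mouse 11 the lowest (-1.01, SE 0.32). It differed by -0.67 without p3 mouse 11, past the threshold, but was not called in the methods' t-test. Adra1b, an adrenergic receptor, was at 5.56, 5.40, 5.69, 5.92, 5.95 and 7.34 (0.85, SE 0.36), where p3 mouse 11 set the difference, which was 0.39 without it and 0.31 without p1 mouse 19 as well. Adra1b also missed the threshold without p1 mouse 7 (0.86), p1 mouse 19 (0.78) or p1 mouse 20 (0.92), and the melanocortin receptor gene Mc3r (0.63, SE 0.26) without p1 mouse 7 (0.33), p3 mouse 2 (0.56), p3 mouse 6 (0.71) or p3 mouse 11 (0.64). Of 49 potassium channels 1 was called higher and 1 lower (4.08%, where 1.71% of all probe sets were called). Kcna4, a voltage-gated channel, was at 10.43, 10.11, 10.26, 10.86, 11.04 and 10.76 (0.62, SE 0.16), and fell short of the fold without p1 mouse 19 or p3 mouse 6 (0.54 each). The other one called, Kcnj11, an ATP-sensitive channel (-0.60, SE 0.24), overlapped and was lost without p1 mouse 7 (-0.47), p1 mouse 20 (-0.60), p3 mouse 6 (-0.57) or p3 mouse 11 (-0.40), and differed by -0.535 with p1 mouse 19 and p3 mouse 11 out. Among 22 glutamate receptors, 18 GABA receptors, 23 genes of acetylcholine receptors and handling, 30 sodium and calcium channels and 43 genes of the synaptic vesicle and postsynaptic density, 0 passed the threshold. Their median differences lay between -0.09 and -0.02. In limma 0 of these 136 genes had an unadjusted p under 0.05, against 5.47% of all probe sets, and 1.71% of all probe sets passed the threshold.

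Clock genes, whose transcripts follow the time of day, held 2 calls among 21, against 1.71% of all probe sets. Arntl, also known as Bmal1 and an activator of the clock, was at 10.83, 10.98, 11.17, 10.23, 10.58 and 10.39 (-0.59, SE 0.16). Ciart, a repressor of the clock, was at 8.31, 8.0, 8.03, 8.80, 8.70 and 9.10 (0.75, SE 0.17). The 2 lay on opposite sides with no overlap in either, and Ciart fell to 0.58, short of the fold, without p1 mouse 19 and p3 mouse 11. Dbp, an output gene of the clock, was at 15.94, 16.02, 15.99, 16.19, 16.31 and 16.48 (0.34, SE 0.14), without overlap but short of the fold. Arntl missed the threshold without p1 mouse 20 (-0.51) or p3 mouse 2 (-0.51). The hour of dissection is not given in the sources used here.

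Immune and astrocyte lists held at most 2 calls each, where 1.71% of all probe sets were called. Of 20 complement genes 1 was called higher and 1 lower (0.955% and 0.752% of all probe sets were). Cd46, a regulator that protects cells from complement, was at 7.24, 8.07, 7.37, 8.37, 8.46 and 8.53 (0.89, SE 0.22), past the threshold whichever mouse was left out. Masp2, a protease of the lectin pathway, differed by -0.70 (SE 0.28) with overlap, and missed it without p1 mouse 7 (-0.49), p1 mouse 19 (-0.71), p3 mouse 2 (-0.54) or p3 mouse 11 (-0.58), and without both p1 mouse 19 and p3 mouse 11 (-0.595). C4b, the fourth complement component, was at 7.49, 7.82, 7.32, 8.10, 7.91 and 8.08 (0.49, SE 0.17), without overlap but short of the fold, and C1qb differed by 0.40 (SE 0.19). Of 38 interferon-induced genes 2 were called higher (0.955% of all probe sets were), Ifit3b and Trim30a (0.59, SE 0.26), the second of which was lost in 5 of the 6 fits that left out 1 mouse (0.30 to 0.66, all but the fit without p1 mouse 19). Gbp2, a guanylate-binding protein, differed by -0.52 (SE 0.18). Ccl3, a chemokine of microglia, was at 4.56, 5.16, 5.03, 5.61, 5.27 and 6.14 (0.76, SE 0.25), and was lost without p1 mouse 7 (0.58) or p3 mouse 11 (0.52). The 18 microglial markers had 0 calls and a median of 0.07, and Cx3cr1, the fractalkine receptor, differed by 0.13. Of 23 astrocyte genes 1 was called, Cbs, an enzyme of homocysteine metabolism (-0.60, SE 0.15), which fell short of the fold without p1 mouse 19 (-0.51), p3 mouse 2 (-0.58) or p3 mouse 6 (-0.54), and without both p1 mouse 19 and p3 mouse 11 (-0.58). Gfap differed by 0.01 and Aqp4 by -0.02.

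Large housekeeping families had medians close to 0. Of 60 cytosolic ribosomal proteins 49 had a lower mean, with a median of -0.09, and of 80 genes of oxidative phosphorylation 58, with a median of -0.05. Both had 0 calls, where 1.71% of all probe sets were called. Proteasome genes (39) had a median of -0.03, heat shock chaperones (31) of -0.10 and collagens (39) of -0.01, each with 0 calls. None of these 5 medians changed sign with the scaling of the arrays, and that of the collagens did when 1 mouse was left out. Over the 59 lists, 10 medians changed sign with the scaling and 32 when 1 mouse was left out. In all, 24 of the 59 lists had no call and 35 had at least 1.

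**Figure D4:**
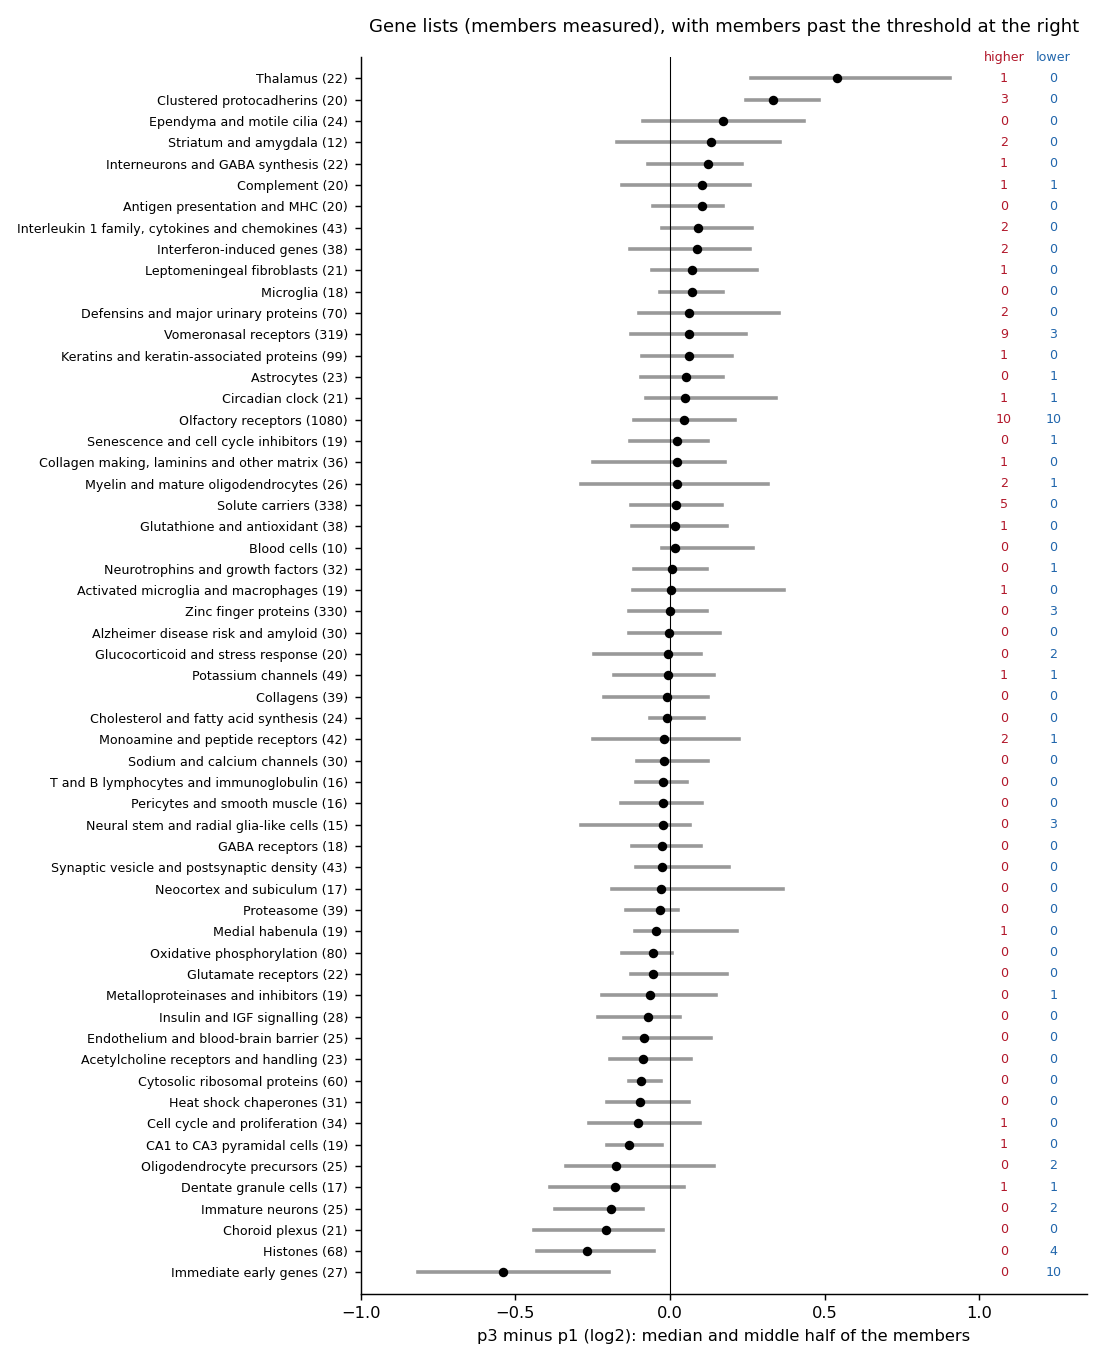
Median difference between p3 and p1 (horizontal axis, log2; points) with the interquartile range of the members (grey bars) for each list of at least 10 measured genes, with the number of members past the threshold at the right. Immediate early genes lie at the bottom (median -0.54, 10 called lower) and thalamus markers at the top (median 0.54, 1 called higher).

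The spread between mice had nearly equal medians in the 2 groups. The SD over 3 mice had a median of 0.202 in p1 and 0.203 in p3, its 90th percentile was 0.449 and 0.446, and it was larger in p3 for 50.3% of probe sets. It was 0.236 in p1 and 0.243 in p3 for probe sets under a log2 value of 6, and 0.179 and 0.176 for the others. An SD over 1 was seen in 106 probe sets in p1, with p1 mouse 19 farthest from the median in 86, and in 100 in p3, with p3 mouse 11 farthest in 89. Of these, 51 were common to both groups. Ttr, which encodes the thyroxine carrier transthyretin, had an SD of 3.16 in p1 and 5.27 in p3 (12.92, 19.05, 14.67, 9.74, 10.41 and 19.19), and Kcnj13, a potassium channel of the same tissue, of 3.76 and 4.07 (8.30, 14.88, 8.42, 7.42, 7.98 and 14.74). None of the 21 choroid plexus markers was called. Without p1 mouse 19 and p3 mouse 11, 3 were called lower in p3, with a difference of -3.72 for Ttr and -0.66 for Kcnj13. In that fit 3.84% of all probe sets were called in either direction. Immediate early genes spread more in p1 (median SD 0.44) than in p3 (0.30), as did dentate granule cell genes (0.33 and 0.20), with no test made of either. The median SE of a difference was 0.184. The limma p-values set a difference against the spread between these mice, moderated over all probe sets, and do not measure that spread.

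**Figure D5:**
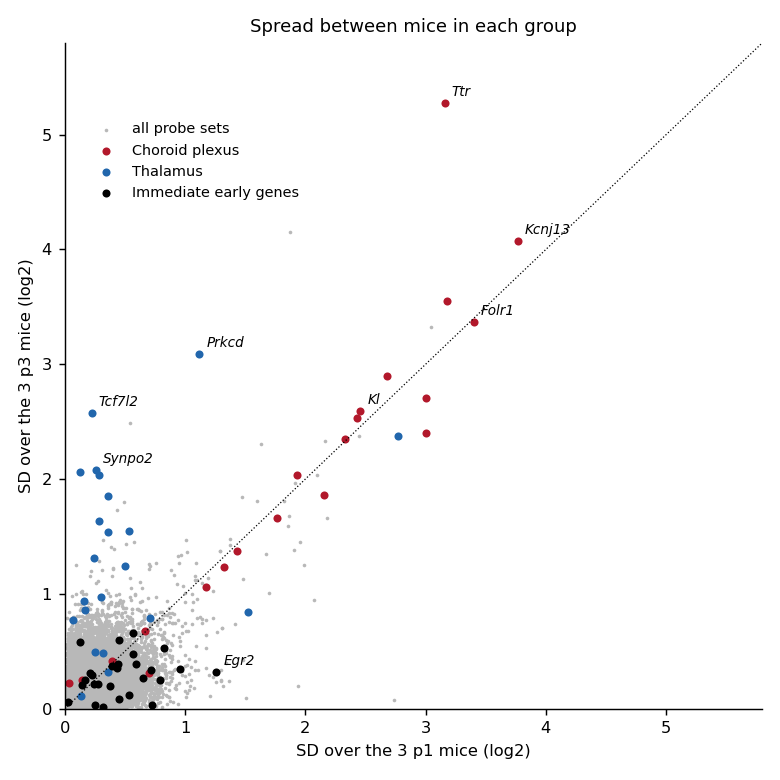
SD over the 3 p1 mice (horizontal axis, log2) against the SD over the 3 p3 mice (vertical axis, log2) for all probe sets, with choroid plexus, thalamus and immediate early genes in colour and a dotted line at equal spread. Choroid plexus genes lie high along the line, up to Ttr (3.16 and 5.27), and thalamus genes such as Tcf7l2 lie high in p3 alone.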

How the data were processed

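RNA from the hippocampus of 9 male mice was amplified with a WT Plus kit for Mouse Clariom S arrays. Normalization by the authors used TAC 4.0.3, and the deposited values are log2 signals of probe sets. Neither background correction, probe summary, genome build nor scan batches are stated in the sources used here. In each p2 column 15915 of 22206 values (71.7%) continue a straight line by row number, so p2 entered only the alternatives with all 9 arrays, those values set to missing. The members and the 59 gene lists were chosen with earlier results of these data known.

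The 6 arrays of p1 and p3 were compared with lmFit and eBayes of limma (version 3.58.1, under R 4.3.3), two-sided, with 4 residual and 4.24 prior degrees of freedom and Benjamini-Hochberg adjustment over 22206 probe sets. The number of arrays limits the precision. The platform annotation named 19572 probe sets with 1 symbol, all matched through Entrez IDs to GRCm38.p6, and left 2634 unnamed. Where a gene had several probe sets the brightest was used. Named were the 15 genes in each direction with the smallest p past the threshold, the 10 with the largest difference, up to 6 called and 4 smallest-p members of each list, the first 3 markers of marker lists and the 10 genes with the largest SD in each group, without predicted and small RNA genes. The fit was tested on simulated data. Alternatives were other scalings, filters, tests, thresholds and sets of mice. Tables and plots came from Python 3.11.15 (pandas 2.3.3, matplotlib 3.10.9).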

Additional observations from a re-analysis of the deposited data

How the results depend on the processing

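No adjusted p was under 0.05 in any alternative fit. Past the study's threshold were 140 probe sets (64 higher, 76 lower) above the median level, 160 (75 and 85) at a log2 value of at least 6, 184 (107 and 77) in the methods' t-test and 190 (111 and 79) with all 9 arrays and no moderation. With a fold over 1.2 there were 1214 (648 and 566), and with a fold over 2 there were 26 (14 and 12). Leaving out p1 mouse 19 and p3 mouse 11 gave 853 (490 and 363). Leaving out 1 mouse gave 474 to 682 (264 to 387 higher, 200 to 306 lower), all above the 379 of the full fit. Calls were higher in p3 for 55.9% as reported, 50.3% after quantile normalization, 49.9% after median centring, 46.9% at a log2 value of at least 6 and 45.7% above the median level.

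Of 115 genes checked 84 were past the threshold, 35 of them under every alternative and 43 in every fit that left out 1 mouse. The sign turned for some genes near 0 or with a wide spread. With 1 mouse left out Jun ranged from -0.11 (without p1 mouse 19; -0.07 without p3 mouse 2) to 0.15, Fosl2 from -0.077 (without p1 mouse 19) to 0.17, Kcnj13 from -2.83 to 1.69 (without p1 mouse 19, and 0.83 and 0.55 without p3 mouse 2 or 6), and Prkcd from -0.86 (without p3 mouse 11) to 1.97. Without both p1 mouse 19 and p3 mouse 11, Fosl2 was -0.085 and Prkcd -0.26. In the methods' t-test and with all 9 arrays and no moderation 2 of 27 immediate early genes, 1 of 20 clustered protocadherins and 2 of 68 histone genes were called. Over the array these fits called 184 and 190 probe sets, against 379 in the main limma fit. No paired analysis was possible because the groups are different mice and no matching between them is given.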

Other observations

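Sensory and barrier gene families that are not known for expression in the hippocampus held a share of the calls. Of 1080 olfactory receptors, 10 were called higher and 10 lower (1.85%, where 1.71% of all probe sets were called), with a median level of 3.87. Of 319 vomeronasal receptors, which detect pheromones, 9 were called higher and 3 lower (3.76%), with a median level of 4.02. Vmn2r85, 1 of the 12, was at 7.61, 7.58, 8.19, 8.67, 8.23 and 8.63 in p1 mice 7, 19 and 20 and p3 mice 2, 6 and 11 (0.72, SE 0.21), with p3 mouse 6 just above p1 mouse 20. It was named after its value was seen, and it was 0.55 and not called without p1 mouse 19 and p3 mouse 11. Of 99 keratins and keratin-associated proteins 1 was called (1.01%, where 1.71% of all probe sets were), Krt12 of the cornea. Krt12 was at 7.37, 7.23, 7.64, 7.81, 8.25 and 8.14 (0.65, SE 0.18). It fell short of the fold without p1 mouse 19 or p3 mouse 6 (0.56 each), and differed by 0.525 with p1 mouse 19 and p3 mouse 11 out.

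Of 338 solute carriers, 5 were called higher and 0 lower (1.48%, where 1.71% of all probe sets were called). Slc46a2, a transporter first described in thymic stroma, was at 4.71, 4.71, 4.88, 5.47, 5.40 and 5.70 (0.76, SE 0.15), with no overlap between the groups. Of 330 zinc finger proteins, 0 were called higher and 3 lower (0.909%), with a median of 0.00 over the list. Of 38 antioxidant genes 1 was called (2.63%, where 1.71% of all probe sets were), Gstt1, a glutathione transferase. Gstt1 was at 5.17, 5.83, 5.66, 6.06, 6.40 and 6.46 (0.75, SE 0.21), and fell short of the fold without p1 mouse 7 (0.56).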
